A study of Mus musculus with 4 samples.

Results

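The mouse genes named Zfp with a number of 3 digits that begins with 7, 8 or 9 are mostly C2H2 zinc finger genes. They were taken by name alone: 130 symbols of GENCODE release 21 (GRCm38) fitted the pattern, 2 of them pseudogenes, and the other 128 protein-coding genes are described here, out of 55487 genes listed. They were measured by RNA-seq in mouse small intestinal (SI) organoids, which are epithelial cultures grown from crypts, after infection with lentivirus expressing miR-181a-5p mimic in one arm and miRNA mimic control in the other. Puromycin at 2 μg/ml was present in all cultures, controls included, to select infected cells. There were 2 libraries of miRNA mimic control (replicates 1 and 2) and 2 of miR-181a-5p mimic (replicates 3 and 4), and the question was which RNAs respond to additional miR-181a-5p. Separate infections are not stated for the libraries within a group, so p-values measure the spread between these libraries, which may be technical.

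C2H2 zinc finger proteins read DNA with a row of short repeats, each folded around a zinc ion that is held by a pair of cysteines and a pair of histidines. Many carry a KRAB domain, which recruits the co-repressor Trim28 and, through it, the histone methyltransferase Setdb1, and they are best known for silencing transposable elements. Their genes arose by repeated local duplication and lie in clusters, so neighbours share long stretches of sequence. A miRNA lowers mRNAs that pair with its seed, usually through the 3′ UTR and more weakly through coding sequence, and matches to the miR-181 seed are known to recur in the finger repeats of this family.

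The sequences below show why this family is of interest in organoids given miR-181a-5p: the letters that pair with the seed stand inside the finger repeat itself. The mature miRNA is given first (RefSeq), with its seed, bases 2 to 8, in capitals. The next lines are the 4 commonest surroundings of a seed match in the members' coding sequences, 5′ to 3′ on the coding strand, with the 7 matching bases in capitals.
mmu-miR-181a-5p: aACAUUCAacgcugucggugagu
surrounding found in 18 members: caaatgtagTGAATGTgacaaatgc
surrounding found in 11 members: gaaaccctaTGAATGTaaacaatgt
surrounding found in 13 members: caaatgcagTGAATGTgacaaatgc
surrounding found in 9 members: gaaaccctaTGAATGTaagcaatgt
In the lines from 18 and from 13 members the match ended on the codon of the second cysteine of a finger and was followed by G. In the other 2 lines it ended on the codon of the first cysteine and was followed by A. This A stands opposite the first base of the miRNA, which is also A, so these bases do not pair. A match followed by A is called an 8-base match here.

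The distance between matches is that of the finger repeat. A stretch of Zfp937, the member with the lowest adjusted p, on the plus strand at chr2:150238351-150238459 (GRCm38) holds 2 consecutive matches with their start positions 84 bases apart.
Zfp937: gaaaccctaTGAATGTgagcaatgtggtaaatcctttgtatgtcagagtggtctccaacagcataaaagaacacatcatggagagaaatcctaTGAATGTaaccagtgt
The same surrounding can occur in members with different values. The commonest surrounding of Zfp820 (minus strand, first at chr17:21819698-21819704) and of Zfp994 (minus strand, first at chr17:22201067-22201073) was the same 25 bases, present 4 and 3 times.
Zfp820 and Zfp994: caaatgtagTGAATGTgacaaatgc
Their log2 fold changes, mimic against control, were -0.69 and -0.02.

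Of the 128 members, 92 (71.9%) had at least 1 such match in their longest annotated coding sequence, against 11.6% of the 21866 protein-coding genes with a coding sequence and 44.0% of the 266 other genes named Zfp. Members with 5 or more matches numbered 50 (39.1%), against 0.695% of coding genes, and they made up 32.9% of the 152 coding genes with that many. The most was 16, in Zfp994. Coding length was greater in members (median 1616 bases) than in all coding genes (median 1176), and no adjustment was made for it. The 538 matches of the members lay in a finger in 90.3% of cases, and 98.1% shared a reading frame. Of the 446 distances between neighbouring matches, 298 (66.8%) were exactly 84 bases. By place, 233 matches ended on the first cysteine codon and 252 on the second. An A followed 216 of the former and 11 of the latter. A match in the 3′ UTR was present in 55 members (43.0%), against 15.8% of coding genes.

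**Figure D1:**
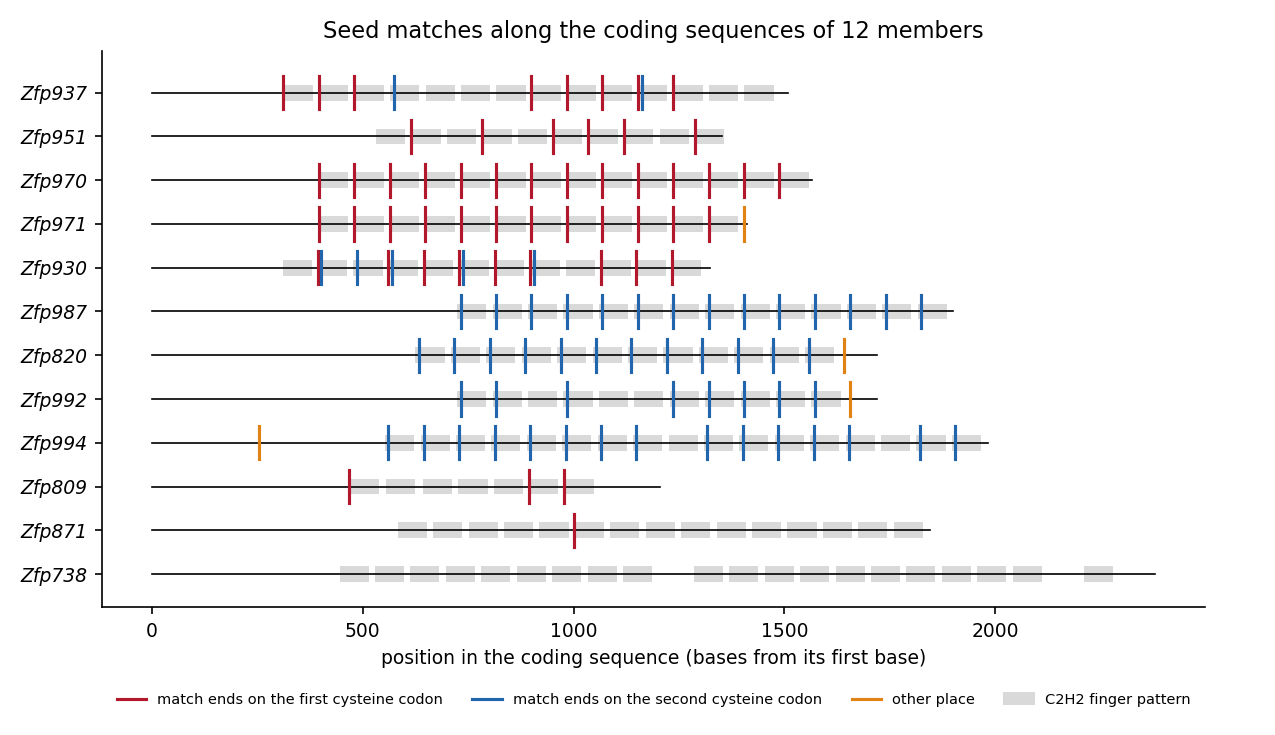
Positions of the 7-base seed matches (vertical marks) along the coding sequences of 12 members, in bases from the first coding base. Grey boxes are finger repeats found by pattern. Zfp970, Zfp971 and Zfp951 carry their matches at the first cysteine, Zfp987, Zfp820 and Zfp994 nearly all at the second, and Zfp738 has none.

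The members differed widely in structure. A KRAB pattern was found in 95 of 128 (74.2%), the median number of fingers was 11 and the maximum 23, and 7 members had no finger pattern in the coding sequence used. The finger and KRAB patterns are simple sequence searches, so a miss does not show that a domain is absent. The genes lay on 17 chromosomes, with 24 on chromosome 7, 21 on 17, 16 on 4, 14 on 8, 13 on 2 and 10 on 13. Clusters, here 3 or more members whose neighbours start at most 500 kb apart, numbered 15 and held 85 members. The longest, on chromosome 4 at chr4:145510759-147848366, held all 16 members of that chromosome.

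The RNA levels of most members were low. In TPM, an abundance scaled to transcript length, 28 members had a mean of at least 10 over the 4 libraries and 100 had at least 1 TPM. The tested members had a median of 5.98 TPM. For the test, 111 members had enough counts, and the other 17 had at most 10 expected counts in any library, 3 of them 0 in all. Of the 16 members on chromosome 4 only 6 passed this filter. An expected count is the estimate by RSEM of the reads from a gene. All members together took between 0.222% and 0.248% of the expected counts of a library.

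Reads of similar genes were divided between them. RSEM shares out a read that fits several transcripts, and of the 128 members 77 had a count that was not whole in at least 1 library. By library, between 50.9% and 53.5% of the members with counts had one that was not whole. The share was between 31.3% and 32.9% of all genes with counts. As a direct measure, 100-base windows of each member's transcripts, the length of a read, were searched for exact copies in all other genes. The median member shared 1.20% of its windows, 50 shared none and 36 shared at least 10%. In 7 members at least 90% of the windows were shared, so that their own counts can hardly be told from those of a neighbour. Sharing was highest on chromosomes 4 and 2, with medians of 36.7% and 32%, against 0.0165% on chromosome 7 and 0.0452% on 17. In cluster 2a, the 4 members Zfp965, Zfp966, Zfp968 and Zfp969 on chromosome 2, the median was 91.0%. Of the 128 members, 40 overlapped a gene on the other strand, and the counting is not stated to use strand.

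The libraries held between 31104884 and 38111731 expected counts, and their TMM scaling factors lay between 0.978 and 1.01. The culture was epithelial: summed normalized CPM (counts scaled to library size) of 6 epithelial markers were between 3965 and 4378, while 4 leukocyte, 2 endothelial and 5 mesenchymal markers summed to less than 1 CPM each in every library. Control replicate 1 was highest in the summed stem cell, Paneth cell, enteroendocrine and tuft cell markers, and lowest in the summed goblet cell markers. Its stem cell markers Lgr5, Olfm4 and Ascl2 summed to 974 CPM against 544, 501 and 709 in control replicate 2 and mimic replicates 3 and 4, and its Paneth cell markers to 435 CPM against 251, 230 and 305. In the same order of libraries, the enteroendocrine markers summed to 502 CPM against 325, 386 and 368. The tuft cell markers summed to 12.4 CPM against 6.80, 8.69 and 10.4, and the goblet cell markers to 1290 CPM against 1611, 1824 and 1377. Single stem cell markers differed. Ascl2 was higher in control replicate 2 (4.84 CPM) than in control replicate 1 (3.44), and Olfm4 had 570 CPM in control replicate 1 and 531 in mimic replicate 4. The 4 enterocyte markers summed to 2649 and 2775 CPM in the controls against 1041 and 1078 with the mimic. Anpep gave the largest part of this fall (1851 and 1245 against 289 and 412). Fabp1 was also lower in both mimic libraries (367 and 668 against 325 and 224). Alpi (39.5 and 110 against 63.8 and 27.9) and Apoa4 (394 and 754 against 363 and 415) overlapped between the groups. Of the enterocyte markers only Anpep passed the test, and of the stem cell markers only Lgr5 (log2 fold changes -2.14 and -1.38, adjusted p = 0.00812 and 0.0369, edgeR). Olfm4 and Ascl2 had log2 fold changes of 0.22 and -0.49. In bulk samples fewer cells of a type and less RNA per cell cannot be told apart, and the part of these shifts in the members' values was not tested.

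With the miR-181a-5p mimic, Zfp937, Zfp951 and Zfp987 fell and no member rose at an adjusted p under 0.05 in the quasi-likelihood test of edgeR. Zfp935 was also called lower, but nearly all of its sequence is shared with another gene, whose log2 fold change was -0.03. All 4 had a KRAB pattern and at least 2 coding seed matches, but most tested members had each of these too. Of the 111 tested, 81 had a KRAB pattern, 22 had 2 to 4 coding matches and 42 had 5 or more. The 4 called members of 111 (3.60%) stand beside a background of 2.29% of all 17155 genes tested that were called lower and 1.28% that were called higher (3.57% in either direction). At a fold change of at least 2 as well, 3 members were lower and 0 higher, against 1.47% and 0.589% of all genes. At an unadjusted p under 0.05, 30 members (27.0%) were lower and 4 (3.60%) higher, against 13% and 11.8% of all genes. An exact permutation test of 2 libraries against 2 cannot go below p = 0.333, so single members were judged only by the fit across all genes. Zfp937 and Zfp951 were not called in any of the 3 limma fits of log2 TPM, where their adjusted p was 0.0823 and 0.131 with a pseudocount of 1 and reached 0.314 and 0.315 when no filter was used. Zfp935 and Zfp987 were tested only in the unfiltered one of these fits and were not called there.

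Zfp937 fell to 50.8% of its control level. It lies on chromosome 2 at chr2:150218073-150240725, has 14 fingers, 10 coding matches and 1 match in the 3′ UTR. Its normalized CPM were 23.0 and 23.6 in the controls against 11.7 and 12 with the mimic, and the groups did not overlap. The log2 fold change was -0.98 (standard error, SE, 0.12, adjusted p = 0.0121, edgeR). It shared 10.9% of its windows, all with Zfp442. The expected counts of Zfp442 were 613 and 450 in the controls against 257 and 391 with the mimic, and its log2 fold change was -0.67. The sum of both genes, not scaled to library size, was 1495 and 1181 in the controls against 622 and 819 with the mimic. The groups did not overlap in this unscaled sum either.

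Zfp951 is the called member that shares no window with another gene. It lies on chromosome 5 at chr5:104813169-104860070, with 10 fingers, 6 coding matches, all at the first cysteine, and 4 matches in the 3′ UTR. The expected counts, all whole, were 204 and 148 in the controls against 64 and 61 with the mimic. In normalized CPM these were 5.32 and 4.78 against 2.04 and 1.71, a log2 fold change of -1.43 (SE 0.23, adjusted p = 0.0251, edgeR), or 37.1% of the control level.

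Zfp987, in the cluster of chromosome 4 at chr4:146097298-146126621, has 14 fingers and a coding match at the second cysteine of each. Its expected counts were 63.5 and 55.0 in the controls against 10 and 13.9 with the mimic, which is 1.64 and 1.77 against 0.319 and 0.393 CPM. The log2 fold change was -2.24 (SE 0.35, adjusted p = 0.0221, edgeR). It shared 70.8% of its windows with other genes, most of them with Gm8935. That gene had 18.4 and 7.07 counts in the controls against 0 in both mimic libraries, so the sum of both, 81.9 and 62.0 against 10 and 13.9, was lower as well. Without mimic replicate 3, Zfp987 was no longer called.

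Zfp935 was listed at 118.6 and 39.6 expected counts in the controls against at 0 in both mimic libraries. With a floor of 3 counts per library it was at least 24.4-fold lower with the mimic, and the adjusted p was 0.0236 (edgeR). However, Zfp935, on chromosome 13 at chr13:62453715-62558511, shared 99.3% of its windows, almost all with Gm49359. That gene had 464 and 447 counts in the controls against 373 and 496 with the mimic, and a log2 fold change of -0.03. The sum of both was 583 and 486 counts in the controls against 373 and 496 with the mimic. These sums were not scaled to library size, so on their own they do not show whether the groups overlapped. The 486 of control replicate 2 came from a library of 31709196 expected counts. The 496 of mimic replicate 4 came from a larger one of 35353035. How RSEM assigned the shared reads was not tested. Zfp969, named after its values were seen, had the same form: 12.8 and 77.3 counts in the controls against 0 in both mimic libraries, at an adjusted p of 0.0936 (edgeR). All of its windows occur in Zfp968, and the sum of both was 149 and 132 in the controls against 73.0 and 98.9 with the mimic.

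**Figure D2:**
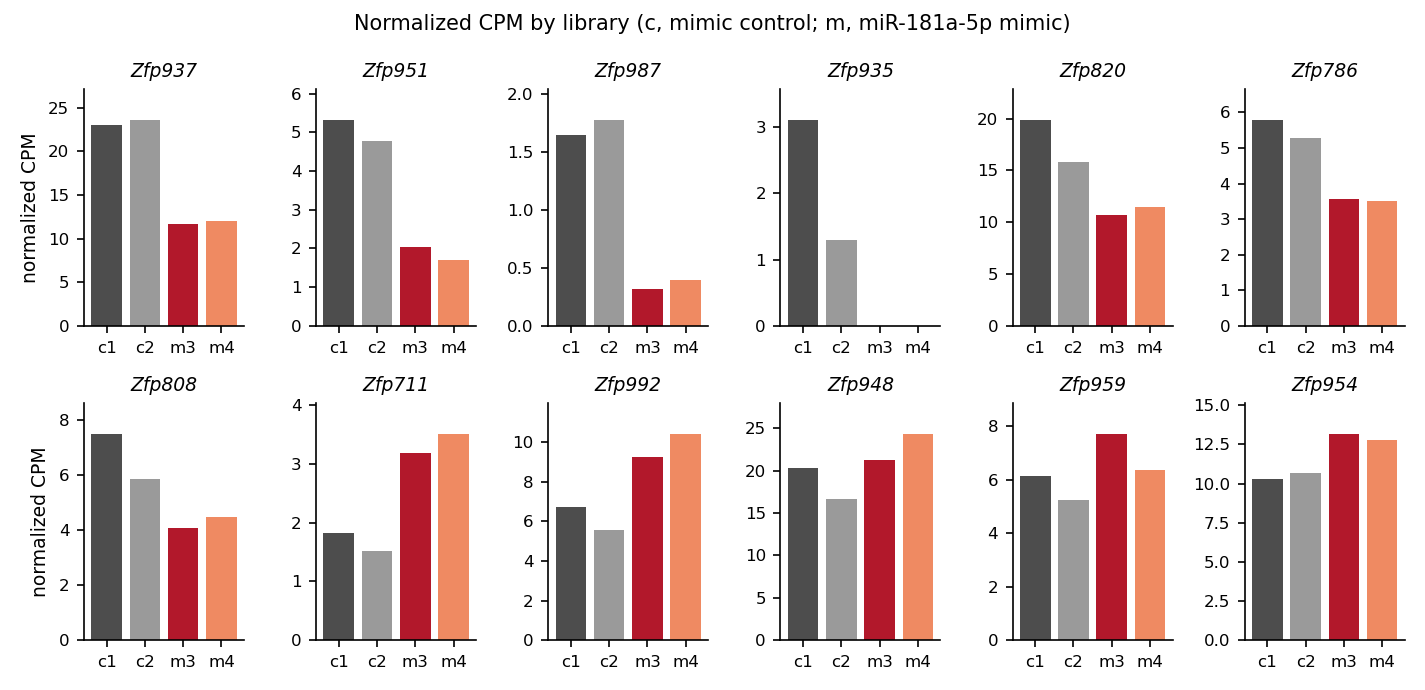
Normalized CPM of 12 members in each library, on linear axes from 0 (c1 and c2, miRNA mimic control replicates 1 and 2; m3 and m4, miR-181a-5p mimic replicates 3 and 4). Zfp937, Zfp951, Zfp987 and Zfp935 passed the test; the other 8 are members with the largest changes among those with 100 counts or more in both libraries of the higher group, and none of these 8 passed it.

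Among members with 100 counts or more in both libraries of the higher group, the most negative after Zfp951 and Zfp937 were Zfp820, Zfp786 and Zfp808. Zfp820 had 19.9 and 15.8 CPM in the controls against 10.7 and 11.5 with the mimic (log2 fold change -0.69, SE 0.16, adjusted p = 0.0620, edgeR). It carries 13 coding matches and 7 in the 3′ UTR, and was called by the exact, likelihood-ratio and DESeq2 tests. It shares no window with another gene, but its counts in mimic replicates 3 and 4 were not whole (334.22 and 410.29). Zfp786 had 5.79 and 5.29 CPM against 3.58 and 3.51, with 1 coding match. Zfp808 had 7.49 and 5.87 CPM against 4.09 and 4.47, with 2. For each of the 3, both mimic libraries were below both controls, as was so in 29.5% of all genes. The differences did not pass the threshold over all genes.

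Under the same limit of 100 counts, the largest positive values were those of Zfp711 and Zfp992. Zfp711, an X-linked gene whose human counterpart is mutated in intellectual disability and which binds promoters of active genes, had 1.83 and 1.52 CPM in the controls against 3.19 and 3.51 with the mimic (log2 fold change 0.997, SE 0.25, adjusted p = 0.0723, edgeR). It has no coding match and 1 in the 3′ UTR. Zfp992 lies in the cluster of chromosome 4 near Zfp987 and has 9 coding matches of the same kind. It had 6.73 and 5.58 CPM against 9.26 and 10.4 (log2 fold change 0.67, SE 0.18, adjusted p = 0.0809). It shared 28.6% of its windows, mostly with Zfp991, whose log2 fold change was -0.02. The sum of both, not scaled to library size, was 702 and 604 counts in the controls against 672 and 832 with the mimic. The 702 of control replicate 1 came from 38111731 expected counts and the 672 of mimic replicate 3 from 31104884. Under that limit Zfp954, Zfp959 and Zfp948 followed with log2 fold changes of 0.31, 0.30 and 0.30 and adjusted p between 0.223 and 0.372. In all 5 the mimic libraries were above both controls, as was so in 28.9% of all genes.

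Most members had small differences, more of them below 0 than above. Of the 111 tested, 79 (71.2%) had a log2 fold change below 0, against 51.4% of all genes, and the median was -0.17 (quartiles -0.42 and 0.055) against -0.012. Both mimic libraries were below both controls in 52 members (46.8%), against 29.5% of all genes, and above both in 24 (21.6%), against 28.9%. The members were more often highest in control replicate 1 than in any other library: 65 of 111 peaked there, 11 in control replicate 2 and 18 and 17 in mimic replicates 3 and 4. Relative to each gene's mean on a log2 CPM scale, the median member stood at 0.16 in control replicate 1, -0.011 in control replicate 2, -0.084 in mimic replicate 3 and -0.046 in mimic replicate 4. Over all genes the same medians lay between -0.0045 and 0.013. Without control replicate 1 the members' median log2 fold change was -0.066, with 66 of 112 below 0, and without control replicate 2 it was -0.26. Members had a lower GC content (median fraction 0.406) than all tested genes (0.491), and with offsets for GC content and length the median was -0.073, beside 0.051 over all genes. The members' median minus that of all genes was -0.16, and it was -0.12 with the offsets and -0.066 without control replicate 1. Leaving out control replicate 1 or control replicate 2 thus moved the members' median in opposite directions. The members called were the same 4 with the offsets.

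**Figure D3:**
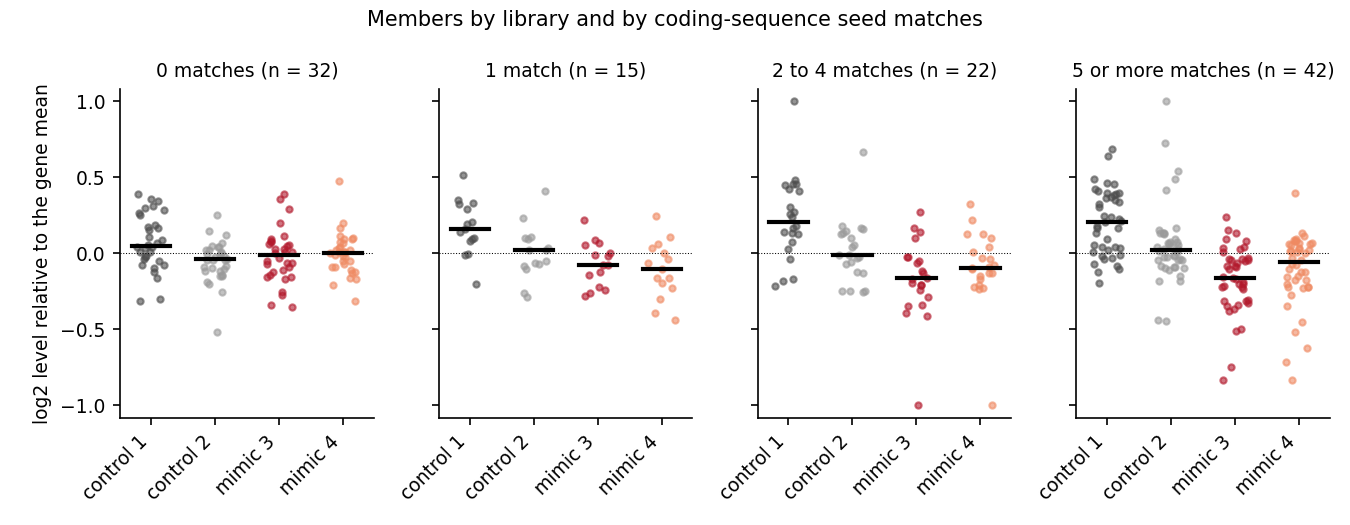
Level of each tested member in each library relative to its own mean (log2 CPM with an offset of 0.5), by the number of seed matches in the coding sequence. Points are members, black lines medians, and points past 1 or -1 are drawn at that edge. In the 3 panels with matches control replicate 1 is highest and both mimic libraries are below control replicate 2, while with 0 matches all 4 medians lie between -0.039 and 0.047.

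By the number of coding matches, members without a match differed least. Their median log2 fold change was -0.047 (32 members, 18 below 0), against -0.14 with 1 match (15 members), -0.27 with 2 to 4 (22 members) and -0.20 with 5 or more (42 members, 33 below 0). The value for no match was 0.026 with the GC and length offsets, where the median of all genes rose from -0.012 to 0.051, and 0.033 without control replicate 1. In genes outside the set the median was lower with each class. The other Zfp genes had -0.0030, -0.061, -0.078 and -0.099 in these classes. Coding genes not named Zfp had 0.033, 0.0041, -0.042 and -0.23, the last over 47 genes. Those 47 had a median of 14 fingers, against 0 in each class with fewer matches, so many of them are zinc finger genes under other names. These classes did not separate the number of matches from the number of fingers. Among members with 5 or more fingers, the 23 without a coding match had a median of -0.11, with 17 below 0. The 75 with at least 1 coding match had -0.22, with 58 below 0. Members with many matches had a wide range of values. Of the 6 tested members with the most, 2 of them tied, Zfp994 (16 matches) had 16.6 and 15.9 CPM in the controls against 15.2 and 16.8 with the mimic. Zfp987, Zfp930 and Zfp970 (14 each) had log2 fold changes of -2.24, -0.28 and -0.22, and Zfp820 and Zfp971 (13 each) had -0.69 and -0.49. Their adjusted p lay between 0.0221 for Zfp987 and 0.939 for Zfp994 (edgeR).

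**Figure D4:**
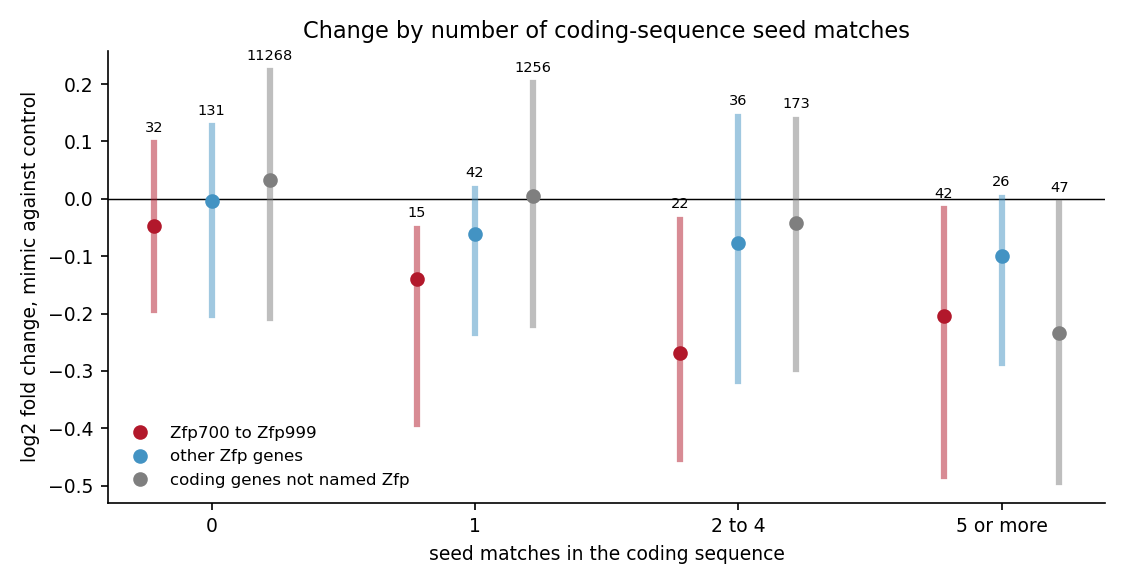
Median log2 fold change (points) and interquartile range (bars) by the number of coding-sequence seed matches, for tested members, other Zfp genes and coding genes not named Zfp. The number of genes stands above each bar. The members' medians were -0.047, -0.14, -0.27 and -0.20 from no match to 5 or more.

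The place of the matches went with different medians. Among members with 5 or more coding matches, the 27 with more of them at the first than at the second cysteine had a median log2 fold change of -0.28, with 22 below 0. The 14 with more at the second cysteine had -0.045, with 10 below 0. The former included Zfp937, Zfp951 and Zfp971 and the latter Zfp987, Zfp820, Zfp994 and Zfp992. Without control replicate 1 these medians were -0.16 and -0.070, and with the GC and length offsets -0.19 and 0.037. All 14 of the second group lay in 2 clusters, those of chromosomes 4 and 17, so place and cluster cannot be told apart. By matches in the 3′ UTR, the 48 members with at least 1 had a median of -0.30, with 40 below 0, and the 63 with none had -0.083, with 39 below 0. The 10 with 4 or more had -0.51, with Zfp951 and Zfp935 among them. Without control replicate 1 these 3 medians were -0.20, -0.0040 and -0.37. They were -0.44, -0.13 and -0.63 without control replicate 2. Members with 5 or more coding matches but no UTR match had -0.087 (20 members), and those with neither had -0.026 (23 members). These values were -0.043 and -0.0040 when control replicate 1 was left out, -0.20 and -0.026 when control replicate 2 was, and 0.0095 and 0.040 with the offsets. These are descriptions of medians and were given no test.

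By chromosome, members on chromosomes 2 and 13 had the lowest medians among those with at least 10 tested. The 12 on chromosome 2 had a median log2 fold change of -0.45, with 11 below 0, and the 10 on chromosome 13 had -0.31, with 9 below 0. Chromosome 8 followed with -0.16 (14 members), 17 with -0.093 (20 members) and 7 with -0.051 (22 members). The 6 tested on chromosome 4 had 0.034. Without control replicate 1 the values for chromosomes 2 and 13 were -0.21 and -0.18, those for 8, 17 and 7 were -0.097, -0.013 and -0.024, and that for 4 was -0.010. Those for chromosomes 2 and 13 were -0.61 and -0.48 without control replicate 2. Sharing also went with the value: the 29 tested members with at least 10% of windows shared had a median of -0.35, and the 82 others -0.11, with 1 of the 4 calls, Zfp951. These medians were -0.19 and -0.021 when control replicate 1 was left out. On chromosome 2, Zfp966 and Zfp967 had 19.6 and 15.1 against 12.8 and 12.6 CPM and 12.1 and 9.62 against 7.85 and 7.95 CPM. Reads shared among them cannot be assigned to 1 gene, so such neighbours are not independent readings. Neighbouring clusters of chromosome 17 differed in their values. The 13 members of cluster 17a, at chr17:21567008-22867134, had a median of -0.069 and ranged from Zfp820 at -0.69 to Zfp948 at 0.30. The 5 tested members of cluster 17b, at chr17:32765496-33033402, were all below 0, with a median of -0.30. In the former the median was 0.033 without control replicate 1, and in the latter -0.23.

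**Figure D5:**
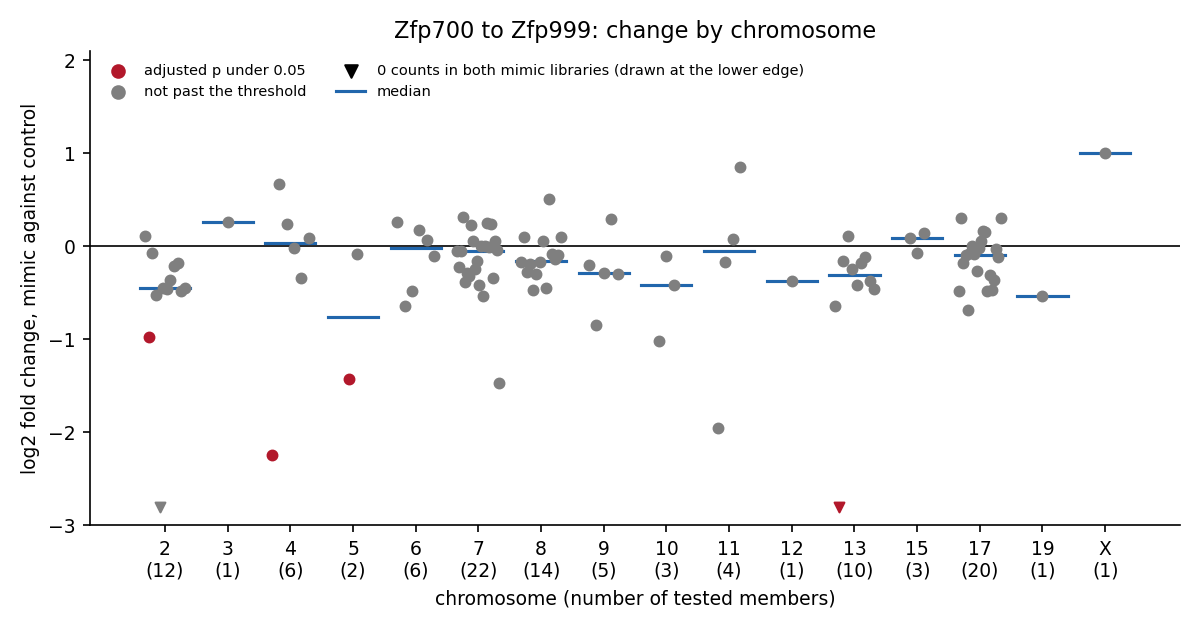
Log2 fold change, mimic against control, of the 111 tested members by chromosome. Red points passed an adjusted p of 0.05, blue lines are medians, and triangles are Zfp969 and Zfp935, which had 0 counts in both mimic libraries and are drawn at the lower edge. Chromosome 2 has 11 of 12 members below 0 and chromosome 4 has 3 of 6.

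By structure, the 81 tested members with a KRAB pattern had a median log2 fold change of -0.19 and the 30 without had -0.032. Without control replicate 1 these were -0.15 and 0.050, and with the GC and length offsets -0.16 and 0.031. Those with fewer than 5 fingers, 13 members, had 0.086, with 4 below 0. These include several of the most abundant and best studied members. Zfp706, a small zinc finger protein that represses Klf4 in embryonic stem cells, was highest of all at 160, 173, 178 and 207 TPM in control replicates 1 and 2 and mimic replicates 3 and 4. Zfp703, a co-repressor of the NET family known from breast epithelium, had 79.3, 80.4, 86.1 and 98.8 TPM. Zfp740 had 68.0 and 60.9 CPM in the controls and 69.7 and 72.1 in the mimic libraries. None of the 3 has a coding match, and their log2 fold changes were 0.086, 0.096 and 0.14, with adjusted p from 0.440 to 0.600 (edgeR).

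The KRAB member with the highest level was Zfp871, with 46.7 and 44.7 TPM in the controls against 35.7 and 40.2 with the mimic. Its CPM of 295 and 273 against 231 and 229 gave a log2 fold change of -0.30 (SE 0.10, adjusted p = 0.113, edgeR), and the groups did not overlap. Zfp809, the KRAB protein that silences murine leukaemia virus through its primer binding site, had 38.5 and 38.7 CPM in the controls against 33.5 and 29.8 with the mimic. It has 3 coding and 3 UTR matches, and its log2 fold change was -0.29 (SE 0.11, adjusted p = 0.167). Zfp932, which silences endogenous retroviruses together with its close relative Gm15446, had 21.4 and 17.7 against 17.8 and 19.2 CPM, and its groups overlapped. It shared 18.5% of its windows, nearly all with Gm15446. Zfp708, known to bind a class of retrotransposon, had 2.53 and 1.42 against 1.37 and 1.99 CPM. Its groups overlapped too, and 94.3% of its windows were shared, nearly all with Gm28557.

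Members with other known roles did not pass the test. Zfp800, a repressor of endocrine differentiation in the gut, had 30.8 and 34.3 CPM in the controls against 41.4 and 36.5 with the mimic, a log2 fold change of 0.26 (SE 0.12, adjusted p = 0.229, edgeR). The enteroendocrine markers summed to 502 and 325 CPM in the controls against 386 and 368 with the mimic, and none of those 3 was called. Zfp704 had 126 and 124 against 146 and 154 CPM, with a log2 fold change of 0.26 (adjusted p = 0.138). Zfp750, a regulator of epidermal differentiation, was low, at 18 and 17 expected counts in the controls against 30 and 31 with the mimic (adjusted p = 0.190). Zfp768 had 33.5 and 37.5 against 27.9 and 27.9 CPM (log2 fold change -0.34, adjusted p = 0.123). For these 4 genes the groups did not overlap. Among all genes both mimic libraries were below both controls in 29.5% and above both in 28.9%. Zfp746, a repressor of the mitochondrial regulator Ppargc1a, had 36.3 and 35.8 against 38.6 and 37.1 CPM. Zfp777, Zfp827 and Zfp830, the second of which brings the NuRD complex to telomeres, had log2 fold changes of 0.17, -0.14 and 0.076, with adjusted p of 0.344, 0.386 and 0.749.

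The partners of KRAB proteins were listed separately, as 28 genes for Trim28, histone methylation, heterochromatin proteins, histone deacetylases and DNA methylation. None of the 28 passed an adjusted p of 0.05 in edgeR's quasi-likelihood test, while 12 had an unadjusted p under 0.05, 10 of them higher and 2 lower, beside the 11.8% and 13% of all genes given above. The median log2 fold change was 0.20. Trim28, the scaffold that the KRAB domain binds, had 282 and 275 CPM in the controls against 350 and 326 with the mimic (log2 fold change 0.28, SE 0.10, adjusted p = 0.136). Setdb1 had 87.7 and 81.7 against 86.1 and 83.1 CPM. Cbx1, a heterochromatin protein named after its values were seen, was nearest the threshold, at 71.0 and 79.1 against 112 and 99.9 CPM (log2 fold change 0.50, adjusted p = 0.0525). By the exact, likelihood-ratio and DESeq2 tests 2 of the 28 were called higher, where these tests called 1788, 1864 and 1330 of all genes against 612 in the quasi-likelihood test.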

How the data were processed

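RNA-seq of mouse SI organoids was analysed in 4 libraries, grouped by the treatment label. Reads were trimmed (Trimmomatic) and assigned to GRCm38 transcripts by RSEM, and the authors deposited an expected count and a TPM for every gene; versions are not given in the sources used here. The supplemental methods describe single reads of 100 cycles after depletion of ribosomal RNA, whereas the labels describe poly(A) selection. In each file 3 columns that match no sample were not used. Rounded expected counts were fitted in R 4.3.3 by edgeR 4.0.16 (filterByExpr, TMM, newer form of glmQLFit, glmQLFTest), with Benjamini-Hochberg adjustment over 17155 genes, in 2 against 2 libraries. The standard error is the size of the log2 fold change divided by the root of F. The steps were tested on simulated data. How far precision was limited by 2 libraries per group and how far by their depth was not tested.

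Members were matched by symbol in GENCODE release 21, and seed matches were counted in the longest annotated coding sequence and 3′ UTR. The mature miRNA came from RefSeq. A count was called whole within 0.005. The members and lists were chosen with earlier results of these data known. Named members were those called; the 5 highest and 5 lowest in fold change with 100 counts or more in both libraries of the higher group; the 5 with the highest TPM; the 5 with the most coding matches, 6 with a tie; and 15 with known roles. Others were named after their values were seen. Alternatives were other edgeR tests, DESeq2 1.42.0, limma 3.58.1 on log2 TPM, other scalings and filters, offsets for GC content and length, and leaving out each library.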

Additional observations from a re-analysis of the deposited data

How the results depend on the processing

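The same 4 members were called with relative log expression factors, with library totals alone, with the GC and length offsets, and in the legacy form of edgeR's quasi-likelihood test. Without a filter and with at least 10 counts in every library 3 of them were called. The exact and likelihood-ratio tests of edgeR each called 10 members lower and 2 higher, and DESeq2 called 6 lower and 1 higher. In the 3 fits of log2 TPM by limma 0 members were called lower and 0 higher, and over all genes these called 75, 27 and 2. The filtered pair of these fits tested 101 members, with 2 of the 4 called ones (Zfp937 and Zfp951) among them. Leaving out a library gave from 3 to 15 members called lower, the 15 without control replicate 2 and the 3 without mimic replicate 3. Over 17 settings 20 different members were called at least once. The members' median log2 fold change, -0.17, was -0.073 with the GC and length offsets and lay between -0.26 and -0.066 when a library was left out, the latter without control replicate 1. For members with no coding match it was 0.026 with the offsets and lay between -0.056 and 0.033 without a library; for 1 match it was -0.023 and -0.031 in the filtered TPM fits (pseudocount 1 and 0.1) and between -0.32 and -0.099 without a library; for 2 to 4 it was -0.096, -0.12 and, unfiltered, -0.086 on TPM; for 5 or more it was between -0.32 and -0.13 without a library. With matches counted in the 3′ UTR in place of the coding sequence, 1 match gave -0.22 and 5 or more gave -0.58 (4 members), and 5 or more 8-base coding matches gave -0.36. Of the co-repressor genes 2 were called higher by the exact, likelihood-ratio and DESeq2 tests, 1 with library totals alone and 1 with the offsets, and leaving out a library gave 0 to 2 higher and 0 to 1 lower. The named members that changed sign were the uncalled Zfp708, Zfp777, Zfp932 and Zfp994, with main values of -0.24, 0.17, -0.083 and -0.021. Zfp708 lay between -0.57 and 0.25 without a library, and Zfp777 was -0.023, -0.025 and -0.023 on TPM. Zfp932 was 0.036 with the offsets and between -0.21 and 0.053 without a library. Zfp994 was 8.3e-05 with library totals, 0.034, 0.041 and 0.034 on TPM and 0.0020 with the offsets. Without a library Zfp994 lay between -0.095 and 0.059. The other 27 named members kept their sign. The cause of these changes was not tested, except that a fit without a library has fewer samples.

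No paired analysis was possible because the groups share no replicate number (1 and 2 against 3 and 4).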

Other observations

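Of the 17 members with too few counts to be tested, 10 lie in the cluster of chromosome 4. Zfp985 (8.05 and 1.01 expected counts in the controls), Zfp989 (3.60 and 4.36) and Zfp988 (3.51 and 1.48) were at 0 in both mimic libraries, and these counts are too low for a comparison. Zfp982 had 3, 6, 2 and 4 counts in the 4 libraries, and Zfp811, in cluster 17b, had 9 and 10 in the controls against 4 and 5 with the mimic. Among members whose windows are nearly all shared, Zfp781 on chromosome 10 (9 matches in the 3′ UTR) had 2.95 and 2.97 CPM in the controls against 1.60 and 1.32 with the mimic (log2 fold change -1.02, SE 0.26, adjusted p = 0.0726, edgeR). Its windows are found mostly in Gm3055, and the sum of both was 278 and 188 counts in the controls against 185 and 186 with the mimic. Zfp950 on chromosome 19 (9 coding matches, no shared window) had 47.3 and 39.6 CPM in the controls against 28.3 and 31.8 with the mimic. Its adjusted p was 0.0677 (edgeR), and its count in mimic replicate 4 was not whole (1132.36). These members were named after their values were seen.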
